A study of Rattus norvegicus with 10 samples.

Results

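Messenger RNAs travel into axons in granules built by RNA-binding proteins, and the transcripts of 9 genes for such proteins, Igf2bp2, Igf2bp3, Stau2, Tardbp, Caprin1, Pcbp2, Cirbp, Hnrnpa3 and Hnrnpab, were followed here in axons of rat sensory neurons. The members were fixed as this list of gene names. All 28 probe sets that the platform annotation pairs with 1 of these names and no other were used, out of 31042 probe sets and 14217 named genes on the array. A probe set is the group of short probes from which 1 value is made. There were 2 groups, 5 arrays with axonal RNA from adult rats and 5 with axonal RNA from embryos at day 16 of gestation. In both groups explants of dorsal root ganglia, which hold the cell bodies of sensory neurons, were cultured for 4 days in chambers with compartments, and axons that had grown for more than 1 cm were taken from the outer compartment. The labels name no allele and no agent, and they do not state strain, adult age or pooling of animals. The samples are labelled as biological replicates.

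RNA granules pair a transcript with proteins that recognise a sequence or fold in it, keep it from being translated on the way, and link it to microtubule motors. In sensory axons local translation of such transcripts serves growth and the response to injury. The best-known carrier is Igf2bp1, the zipcode-binding protein of beta-actin mRNA, of which Igf2bp2 and Igf2bp3 are close relatives. Igf2bp3 is best known as a protein of fetal tissues. Stau2 binds double-stranded RNA and carries transcripts into neuronal processes. Tardbp binds GU-rich RNA, shuttles between nucleus and cytoplasm and is the protein that aggregates in amyotrophic lateral sclerosis. Caprin1 is a partner of G3bp1 in neuronal granules and stress granules. Pcbp2 binds stretches of C and stabilises or silences its targets. Cirbp is induced by mild cold and joins stress granules. Hnrnpa3 and Hnrnpab belong to the hnRNP A/B proteins, which package transcripts in the nucleus and follow some of them into the cytoplasm.

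RefSeq promoter windows (build GRCr8) were found for 8 of the 9 members, Stau2 being the exception, with 2 windows for Caprin1. In the 250 bases before the start of transcription, the GC content lay between 57.6% and 82.4% over the 9 windows, against a median of 51.2% over 33469 windows of all genes. The ratio of observed to expected CpG was 0.66 to 1.23 in these windows and had a median of 0.383 over all genes. A GC box, GGGCGG or its reverse complement CCGCCC with overlapping matches counted, was present in 7 of 8 members and in 30.5% of all windows. A CCAAT box on either strand was present in 4 of 8 members and 34.0% of all windows, and a TATA box (TATAAA on either strand) in 1 of 8 members and 12.9%. These matches describe the letters only. The upstream bases of 3 members are shown 5′ to 3′ with GC and CCAAT boxes in capitals, because Cirbp and Igf2bp2 had the lowest p values in the stage comparison and Hnrnpa3 had the lowest among probe sets that were higher in adult axons. They lie at chr7:10189476-10189725 (minus strand) for Cirbp, chr11:92378658-92378907 (plus strand) for Igf2bp2 and chr3:80985684-80985933 (plus strand) for Hnrnpa3.
Cirbp: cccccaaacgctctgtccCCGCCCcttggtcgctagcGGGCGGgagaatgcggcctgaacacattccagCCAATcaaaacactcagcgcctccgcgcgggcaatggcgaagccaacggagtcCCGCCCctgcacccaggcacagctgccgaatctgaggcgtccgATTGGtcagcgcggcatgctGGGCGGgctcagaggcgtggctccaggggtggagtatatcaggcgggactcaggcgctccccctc
Igf2bp2: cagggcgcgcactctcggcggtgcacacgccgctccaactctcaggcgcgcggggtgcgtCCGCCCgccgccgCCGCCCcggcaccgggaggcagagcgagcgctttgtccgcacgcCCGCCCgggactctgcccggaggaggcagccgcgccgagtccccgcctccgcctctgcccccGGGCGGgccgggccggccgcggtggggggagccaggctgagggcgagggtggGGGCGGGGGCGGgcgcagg
Hnrnpa3: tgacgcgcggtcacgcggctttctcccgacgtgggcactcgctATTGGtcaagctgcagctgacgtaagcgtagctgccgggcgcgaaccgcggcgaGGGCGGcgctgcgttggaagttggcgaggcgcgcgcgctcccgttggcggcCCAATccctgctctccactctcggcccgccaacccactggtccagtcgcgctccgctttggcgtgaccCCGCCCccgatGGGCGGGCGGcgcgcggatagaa
The Cirbp window held 4 GC boxes and 2 CCAAT boxes, that of Hnrnpa3 held 4 and 2, and that of Igf2bp2 held 6 GC boxes and 0 CCAAT boxes.

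The values are log2 signals made by the authors with RMA, which corrects the background of an array, equalises the arrays and summarises the probes of a set. The table has no detection calls. A probe set was therefore counted as above background on an array when it exceeded a level set by 86 genes that axons should lack because they belong to other tissues (the 95th percentile over their 98 probe sets). This level was 3.14 to 4.01 on adult arrays and 3.52 to 4.14 on embryonic arrays. Levels of different probe sets cannot be compared exactly with each other, so differences are taken between arrays within a probe set. Probe sets are set beside each other only for the background level, the choice of 1 probe set per gene and the sums over marker lists, which are therefore approximate. Between 5403 and 9283 genes were above background on adult arrays and between 5585 and 8076 on embryonic arrays. Control transcripts of the kind added before labelling averaged 10.66 ± 1.70 (SD, n = 5) on adult and 2.26 ± 0.31 on embryonic arrays without overlap (two-sided exact permutation p = 0.0079, the smallest that 252 labellings allow with this number of arrays, adjusted p = 0.0635 over 8 array measures). On embryonic arrays they were at 2.00 to 2.65, below the background level. Whether they were added to the embryonic samples was not tested. Labelling and stage cannot be told apart in any comparison below. The arrays also differed in the SD of all their values. It was 1.95 to 2.07 on 4 arrays, adult replicates 4 and 5 and embryonic replicates 1 and 5, here called wide, and 1.49 to 1.70 on the 6 others, called narrow.

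The question put to these transcripts was whether their levels differ between adult and embryonic axons. The arrays measure RNA, so they do not show whether the granule proteins themselves differ. Among the 28 probe sets 0 passed limma's adjusted p of 0.05, where 0.831% of all probe sets did. The adjusted p values ranged from 0.118 to 0.9995. By the unadjusted p under 0.05 there were 8 probe sets of 6 members, 6 of them lower and 2 higher in adult axons, against 9.84% of all probe sets. The median difference, adult minus embryonic, was -0.24 on the log2 scale over the 28 probe sets and 0.00 over all, with 20 negative and 8 positive. The stages did not overlap for 2 of the 28, Stau2 1379754_at and Pcbp2 1398941_at, against 2.58% of all probe sets. The median standard error was 0.58 for members and 0.39 for all probe sets. Of all probe sets 36.0% were above background on 0 arrays, against 7.14% of the members' probe sets, so the 2 medians cover unlike sets. Precision was not compared with that of other probe sets above background. In axonal RNA a lower signal from fewer axons and from less of a transcript per axon cannot be told apart.

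More members were above background in embryonic than in adult axons. Represented by the probe set with the highest mean, 4 of 9 members were above background on all 5 adult arrays, Igf2bp2, Cirbp, Hnrnpa3 and Hnrnpab. On all 5 embryonic arrays there were 7, these 4 with Tardbp, Caprin1 and Pcbp2. With any probe set of a gene counted, Caprin1 was also above background on all 5 adult arrays and Stau2 on all 5 embryonic arrays. The same counts were not made over all genes. Of the 28 probe sets, 14 were above background on more embryonic than adult arrays, 2 on more adult than embryonic arrays and 12 on equal numbers. Over all probe sets these shares were 21.1%, 23.7% and 55.2%. Above background on all 10 arrays were 8 probe sets (28.6%, against 9.71% of all), and 2 were so on 0 arrays (7.14%, against 36.0% of all). The remaining 18 were above background on some arrays and not on others (64.3%, against 54.3%). These counts were not tested.

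**Figure D1:**
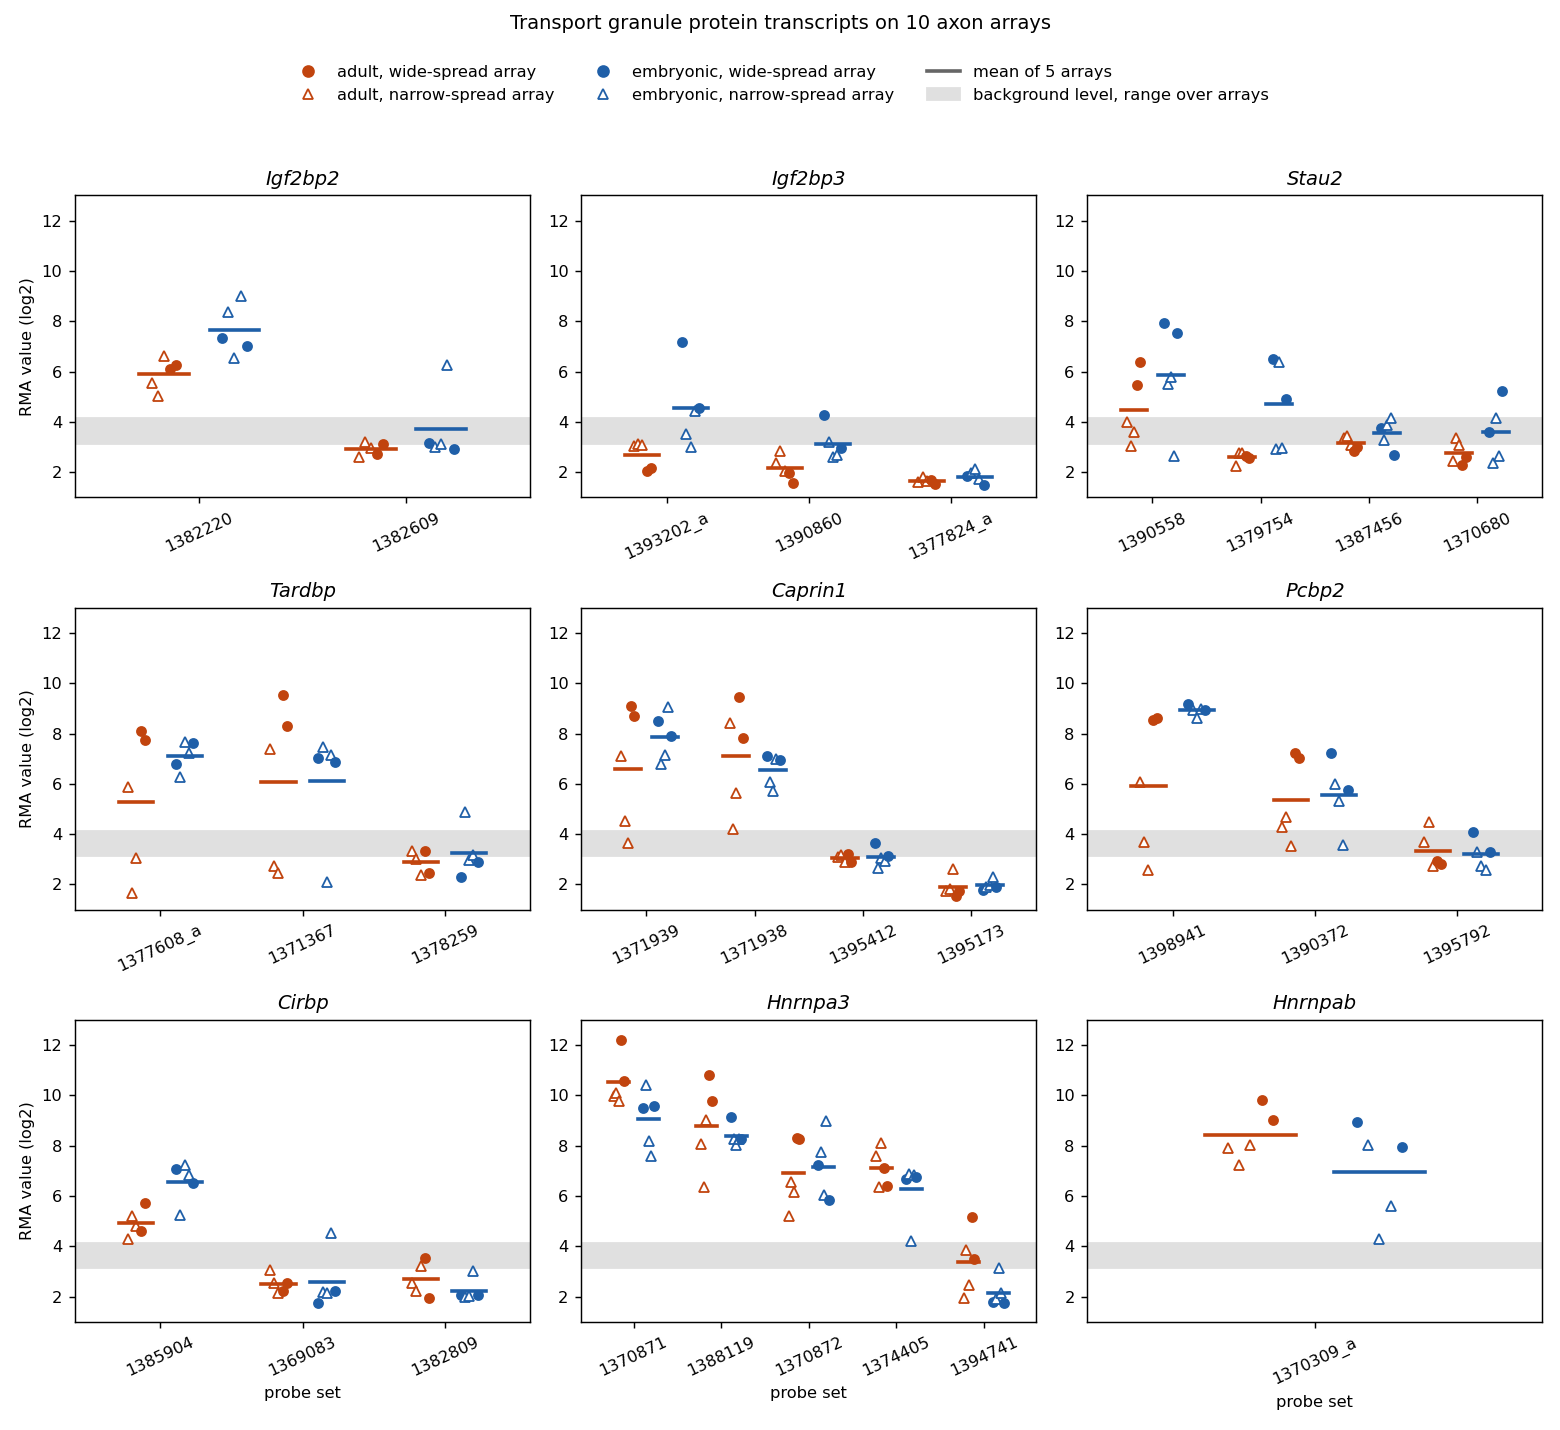
RMA values (log2, vertical axis) of every member probe set (horizontal axis) on single arrays, with the 5 adult arrays left of the 5 embryonic arrays, horizontal lines for the means and a grey band for the range of the background level. Igf2bp2 and Cirbp lie lower on most adult arrays in 1 probe set each, Igf2bp3 lies below the band on every adult array, and Tardbp, Caprin1 and Pcbp2 range over more than 5 units among adult arrays.

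Of the 2 relatives of the zipcode-binding protein, Igf2bp2 was clearly present in both stages. Its probe set 1382220_at was at 5.54, 5.04, 6.64, 6.10 and 6.26 on adult arrays and at 7.34, 8.37, 6.54, 9.001 and 7.03 on embryonic arrays. Only embryonic replicate 3, at 6.54, lay below the highest adult value, so the stages overlapped by 1 array. The difference was -1.74 ± 0.49 (SE; 95% interval -2.83 to -0.65; limma adjusted p = 0.175). Its other probe set, 1382609_at, was above background on 0 adult arrays and on embryonic replicate 4 alone, where it reached 6.27 against 2.92 to 3.15 on the other embryonic arrays. Igf2bp3 was not above background on any adult array in any of its 3 probe sets. Probe set 1393202_a_at was at 3.05, 3.10, 3.08, 2.04 and 2.17 on adult arrays, and at 7.16, 3.52, 3.01, 4.42 and 4.57 on embryonic arrays, 3 of which were above background. Embryonic replicate 1 was the highest and replicate 3 lay among the adult values. Against the background level this probe set was at least 1.81-fold lower in adult axons, with measured means of 2.69 in adult and 4.54 in embryonic axons (95% interval of the difference -3.34 to -0.35, limma adjusted p = 0.345). This bound replaces each adult value by that array's background level where the value is below it. Such bounds, here and for Stau2 below, concern the means of these arrays and leave out sampling error. The bound rested on embryonic replicate 1, without which it was 1.15-fold. It was 6.19-fold within the wide arrays, and within the narrow arrays the embryonic mean of 3.65 lay under the adult background of 3.97, which gave no bound. The differences were -3.76 within wide and -0.57 within narrow arrays. The 2 other probe sets differed by -0.99 (1390860_at, adjusted p = 0.353) and -0.16 (1377824_a_at, adjusted p = 0.911), both of these were designed on the same sequence record, and neither gave a bound. For 1390860_at the difference was -1.85 within wide and -0.41 within narrow arrays. Igf2bp1 itself, outside the list of members, was above background on 0 adult arrays and 1 embryonic array (difference -0.81, adjusted p = 0.55).

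Stau2, the double-stranded RNA-binding carrier, had negative differences in all 4 of its probe sets, from -2.12 to -0.40. Probe set 1379754_at was at 2.26, 2.77, 2.76, 2.66 and 2.58 on adult arrays and at 6.48, 2.93, 6.37, 2.95 and 4.91 on embryonic arrays. All adult values lay below all embryonic ones, but embryonic replicates 2 and 4 were below background as well. This probe set was at least 2.07-fold lower in adult axons against the background level, with measured means of 2.60 in adult and 4.73 in embryonic axons and a difference of -2.12 ± 0.70 (SE; 95% interval -3.68 to -0.57; adjusted p = 0.272). The bound was 5.51-fold within the wide and 1.08-fold within the narrow arrays, and 1.53-fold to 2.83-fold when 1 array was left out. The 2 probe sets 1387456_at and 1370680_at, above background on 2 and 3 embryonic arrays and on 0 adult arrays, gave no bound (differences -0.40 and -0.84, adjusted p = 0.79 and 0.70). Probe set 1390558_at was the only one of Stau2 above background in adult axons, on 3 of 5 arrays, and was so on 4 of 5 embryonic arrays. It was at 3.98, 3.02, 3.59, 5.46 and 6.38 on adult arrays and at 7.94, 5.502, 5.77, 2.63 and 7.51 on embryonic arrays. In both stages the 2 wide arrays were the highest, and the lowest value of all belonged to embryonic replicate 4 (difference -1.38 ± 0.99, adjusted p = 0.764). The paralogue Stau1 was above background on 4 of 5 adult and 5 of 5 embryonic arrays and differed by -0.81 (adjusted p = 0.815).

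Tardbp and Caprin1 were present on every embryonic array in at least 1 probe set and varied widely between adult arrays. Tardbp 1377608_a_at, whose suffix marks probes shared by several transcripts of the gene, was at 5.88, 1.67, 3.04, 8.11 and 7.76 on adult arrays and at 6.80, 6.25, 7.66, 7.24 and 7.60 on embryonic arrays. Adult replicates 2 and 3 were below background, while adult replicates 4 and 5 exceeded all embryonic arrays. The difference was -1.82 ± 1.14 (SE; 95% interval -4.33 to 0.70; adjusted p = 0.709). A second probe set, 1371367_at, was likewise lowest on adult replicates 2 and 3 and highest on replicate 4, at 7.40, 2.74, 2.47, 9.54 and 8.31, and stood at 7.04, 7.47, 2.10, 7.14 and 6.85 on embryonic arrays (difference -0.03, 95% interval -3.44 to 3.39, adjusted p = 0.9995). Its SD among adult arrays, 3.27, was larger than that of 99.97% of all probe sets. On embryonic replicate 3 the 2 probe sets disagreed, with 7.66 for the first and 2.10, below background, for the second. The third, 1378259_at, was above background on 0 adult and 1 embryonic array.

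Caprin1 had 2 probe sets with signal. Probe set 1371939_at was at 7.12, 4.51, 3.65, 9.08 and 8.68 on adult arrays and at 8.49, 6.79, 7.16, 9.03 and 7.88 on embryonic arrays. Adult replicates 2 and 3 were again the lowest, and adult replicate 4 the highest of the 10. The difference was -1.27 ± 1.02 (SE; adjusted p = 0.811). Probe set 1371938_at was at 8.41, 4.22, 5.63, 9.45 and 7.81 on adult arrays and at 7.11, 6.07, 5.70, 7.005 and 6.94 on embryonic arrays, with a difference of the opposite sign, 0.54 ± 0.88 (95% interval -1.40 to 2.48; adjusted p = 0.94). The 95% interval held 0 for every Tardbp and Caprin1 probe set, and for Tardbp 1371367_at it was the widest of all member probe sets.

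Pcbp2, the C-rich RNA-binding protein, had the largest difference among the members. Its probe set 1398941_at was at 6.05, 3.69, 2.59, 8.54 and 8.62 on adult arrays and at 9.17, 8.92, 8.62, 8.96 and 8.92 on embryonic arrays. Every adult array lay below every embryonic one, but adult replicate 5 missed the lowest embryonic value by less than 0.01. The difference was -3.02 ± 1.08 (SE; 95% interval -5.40 to -0.64; adjusted p = 0.327). The embryonic SD of 0.20 was larger than that of only 7.99% of probe sets, and the adult SD of 2.75 was larger than that of 99.7%. Within the wide arrays the difference was -0.47 and within the narrow arrays -4.72. Probe set 1390372_at was at 4.28, 4.68, 3.52, 7.21 and 7.03 on adult arrays and at 7.21, 6.002, 5.30, 3.55 and 5.75 on embryonic arrays, with almost the same range in both stages (difference -0.22 ± 0.84, adjusted p = 0.978). The third probe set, 1395792_at, differed by 0.12 (adjusted p = 0.976).

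Cirbp, the cold-inducible member, came closest to the threshold. Its probe set 1385904_at was at 4.31, 5.22, 4.80, 4.60 and 5.72 on adult arrays and at 7.07, 5.26, 7.23, 6.83 and 6.52 on embryonic arrays. Embryonic replicate 2 lay among the adult arrays and the 4 other embryonic arrays above all of them. The difference was -1.65 ± 0.41 (SE; 95% interval -2.56 to -0.74; adjusted p = 0.118). Without embryonic replicate 2 it was -1.98 and passed the threshold (adjusted p = 0.0377), and over all alternatives tried the adjusted p ranged from 0.0377 to 0.377. It was -1.64 within the wide arrays and -1.66 within the narrow arrays. The 2 other Cirbp probe sets were above background on at most 1 array of a stage and differed by -0.06 (1369083_at, adjusted p = 0.988) and 0.46 (1382809_at, adjusted p = 0.796). Rbm3, the other cold-inducible RNA-binding protein, was above background on all 10 arrays and differed by 0.94 (adjusted p = 0.725).

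The 2 hnRNP A/B genes were the members with mostly positive differences. Hnrnpa3 probe set 1370871_at was at 9.97, 10.11, 9.78, 12.22 and 10.59 on adult arrays and at 9.52, 10.40, 8.20, 7.59 and 9.58 on embryonic arrays. Embryonic replicate 2 lay within the adult range and the 4 other embryonic arrays below it. The difference was 1.48 ± 0.61 (SE; 95% interval 0.13 to 2.82; adjusted p = 0.432). Of its 4 other probe sets, 3 had positive differences from 0.39 to 1.25 and 1370872_at had -0.26, with adjusted p values of 0.502 to 0.971. Of these, 1394741_at was above background on 2 adult and 0 embryonic arrays. Hnrnpab had a single probe set, 1370309_a_at, at 7.93, 7.23, 8.04, 9.83 and 9.01 on adult arrays and at 8.93, 8.04, 4.30, 5.62 and 7.95 on embryonic arrays. Embryonic replicates 3 and 4 lay below every adult array and the 3 other embryonic arrays among them (difference 1.44 ± 0.86, 95% interval -0.46 to 3.34, adjusted p = 0.687). Without embryonic replicate 3 the difference was 0.78. Genes of this family have close relatives elsewhere in the genome, and whether these probes also detect them was not tested.

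**Figure D2:**
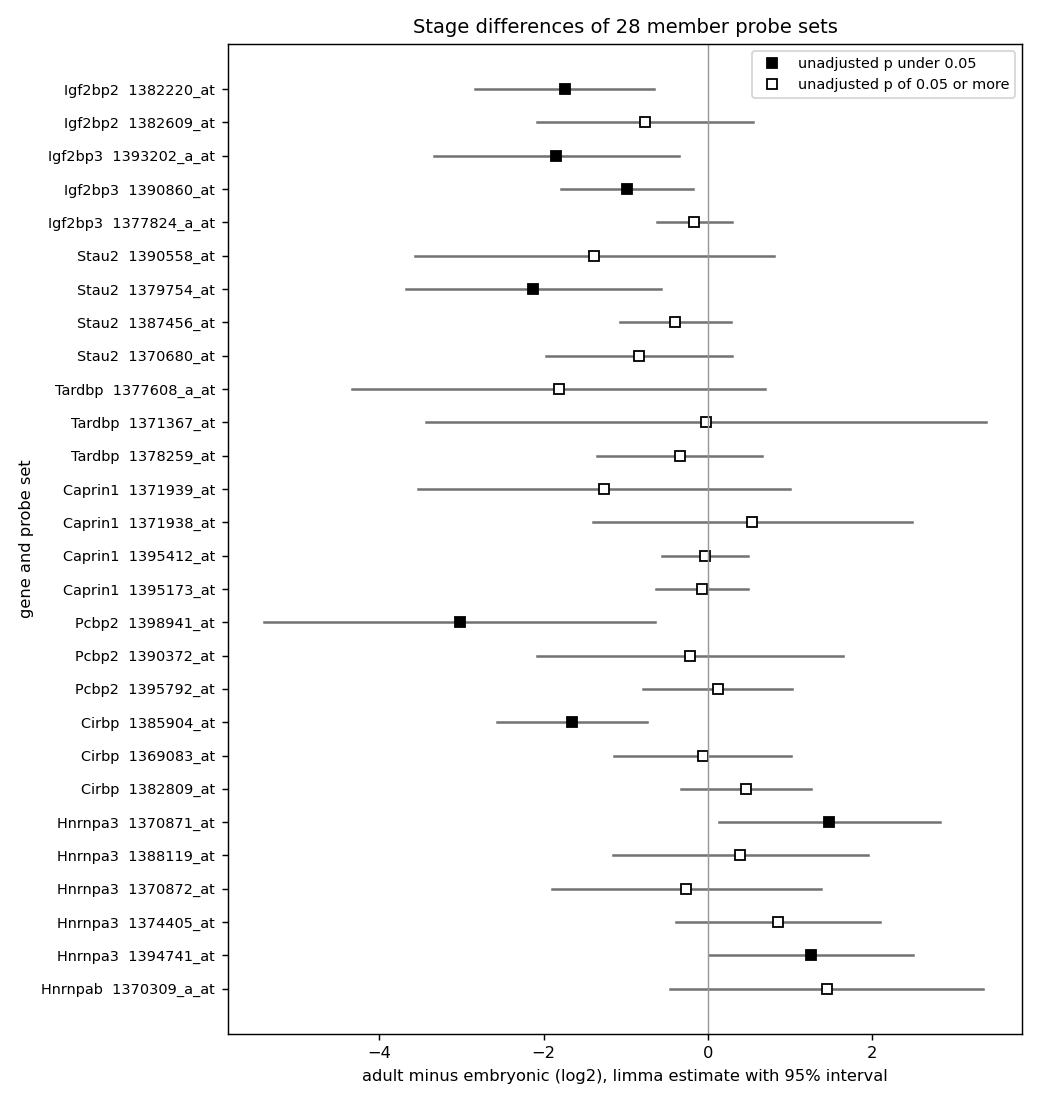
Differences between stages (adult minus embryonic, log2, horizontal axis) for the 28 probe sets (vertical axis), with limma estimates as squares and 95% intervals as lines. Filled squares have an unadjusted p under 0.05, 6 negative and 2 positive, and 0 passed the adjusted threshold.

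Probe sets of 1 gene did not always point the same way. In Caprin1, Pcbp2, Cirbp and Hnrnpa3, 4 of the 9 members, the differences had both signs. In Igf2bp2, Igf2bp3, Stau2 and Tardbp all were negative. The sign also depended on which arrays were compared. It was the same within the wide and within the narrow arrays for 16 of 28 probe sets, 11 lower and 5 higher in adult axons. These included all probe sets of Igf2bp2, Igf2bp3 and Stau2, whose sizes nevertheless differed, as for Stau2 1370680_at with -1.97 within wide and -0.09 within narrow arrays and Igf2bp2 1382220_at with -1.004 and -2.23. For Tardbp and Caprin1 every probe set had opposite signs in the 2 kinds of array. For Tardbp 1377608_a_at the difference was 0.73 within the wide and -3.52 within the narrow arrays, and for Caprin1 1371939_at it was 0.69 and -2.57. Negative differences numbered 14 of 28 within the wide arrays and 20 of 28 within the narrow arrays. Adult replicates 2 and 3, the lowest for the leading probe sets of Tardbp, Caprin1 and Pcbp2, also had the fewest genes above background of the adult arrays, 5515 and 5403, and adult replicates 4 and 5 had the most, 8608 and 9283. The part of array quality in these values was not tested.

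**Figure D3:**
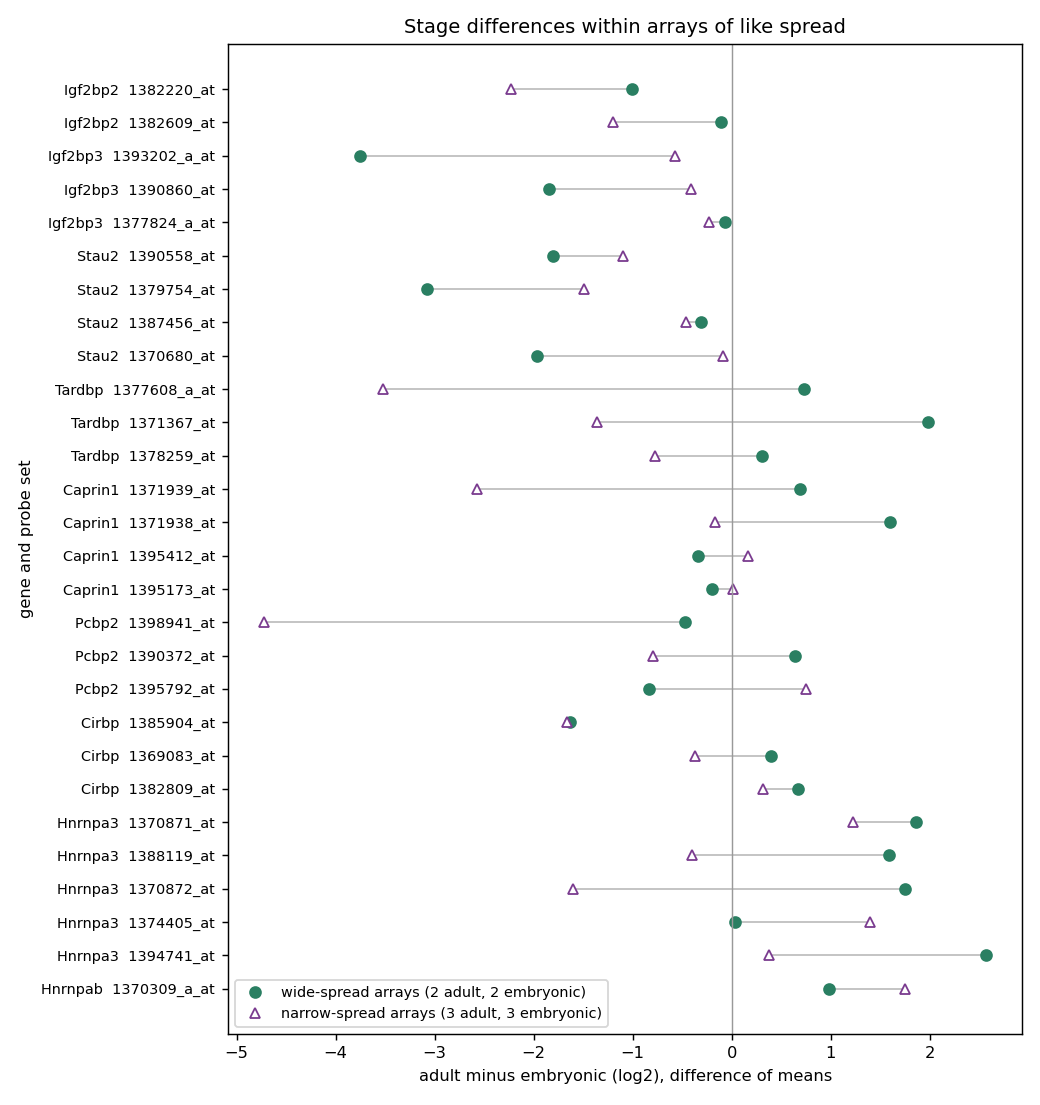
Difference of stage means (adult minus embryonic, log2, horizontal axis) for each member probe set (vertical axis), within the 4 wide arrays (circles) and within the 6 narrow arrays (triangles). Cirbp 1385904_at has nearly the same difference in both, -1.64 and -1.66, whereas Pcbp2 1398941_at has -0.47 and -4.72 and the Tardbp probe sets lie on opposite sides of 0.

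Genes with the most similar course over the 10 arrays were sought for the member probe set with the lowest p in each direction, by the root mean square difference between values centred on their own mean. For Cirbp 1385904_at these were Zfp267 (0.46), the thyroid hormone receptor Thra (0.47) and the histone H2aj (0.49), with differences between stages of -1.19, -1.13 and -1.04. For Hnrnpa3 1370871_at they were the cap-binding protein Ncbp3 (0.47), Bltp2 (0.51) and the DNA helicase Recql (0.54), with differences of 1.79, 1.17 and 0.80. None of these 6 genes passed the adjusted threshold, at limma adjusted p values from 0.162 to 0.727.

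Among other RNA granule genes 2 passed the threshold, Elavl4 and Pcbp3, both lower in adult axons. Each gene was represented by its probe set with the highest mean. Of 28 other transport granule proteins 1 was lower and 0 were higher in adult axons, of 21 other hnRNP and poly(C)-binding proteins 1 was lower and 0 were higher, and of 17 stress granule and P-body proteins 0 passed. These are 2 of 66 genes (3.03%, against 1.26% of all genes). An unadjusted p under 0.05 was found for 9 of 66, about the same share as the 1890 of all 14217 genes. The medians of the 3 lists were -0.09, -0.32 and -0.35, against 0.00 over all genes. By the same rule the median of the 9 members was -1.65, but over all their 28 probe sets it was -0.24. The members and lists were chosen with earlier results of these data known, so these medians are a description only. Elavl4, a neuronal binder of AU-rich transcripts, fell by 3.79 ± 0.57 on the log2 scale (adult 2.80 ± 0.65, embryonic 6.58 ± 1.24, SD, n = 5; adjusted p = 0.0124). Only 1 adult array was above background, against 5 embryonic arrays, and with values below background set to that level the difference was -2.81. Pcbp3, a relative of Pcbp2, was at 5.29, 4.09, 5.81, 7.26 and 8.25 on adult arrays and at 10.60, 9.48, 9.52, 8.96 and 10.53 on embryonic arrays, without overlap. It fell by 3.68 ± 0.71 (adjusted p = 0.0442), while its 2 other probe sets differed by -1.22 (adjusted p = 0.579) and -0.27 (adjusted p = 0.848). The Pcbp3 call was lost in 8 of 10 omissions of 1 array, all but those of adult replicate 5 and embryonic replicate 4, with adjusted p values up to 0.117. Among stress granule and P-body proteins the 2 lowest p values belonged to Ago1, an Argonaute protein (4.64 ± 0.82 in adult and 6.13 ± 0.49 in embryonic axons, adjusted p = 0.165), and Atxn2l (3.72 ± 0.49 in adult and 4.85 ± 0.79 in embryonic axons, adjusted p = 0.327).

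**Figure D4:**
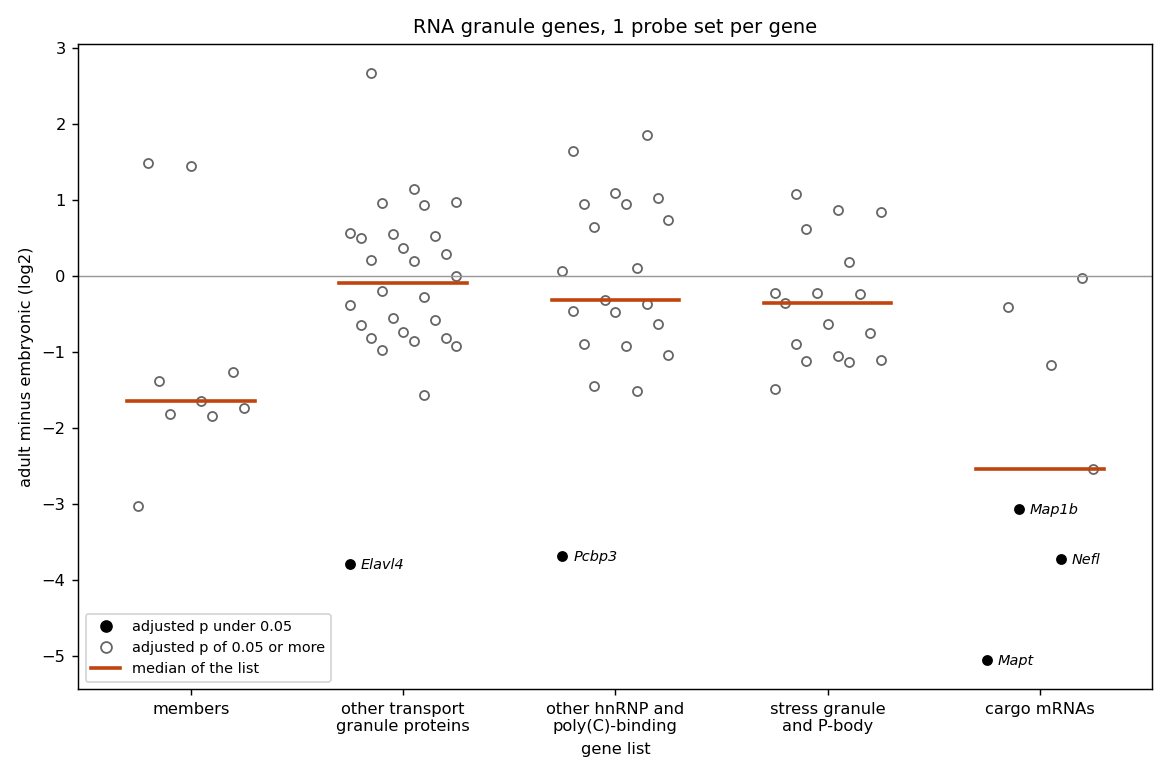
Differences between stages (adult minus embryonic, log2, vertical axis) for the members and 4 other gene lists (horizontal axis), with 1 probe set per gene and a line at each median. Filled points passed the adjusted threshold, Elavl4, Pcbp3, Mapt, Map1b and Nefl, all lower in adult axons.

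Transcripts that these proteins and their partners are known to bind were compared in the same way. Of 7 such cargo transcripts with a probe set 3 fell and 0 rose (42.9%, against 1.26% of all genes). The list median was -2.54, against -0.0009 over all genes. Sensory neuron markers, described below, moved alike, with 4 of 14 lower, 0 higher and a median of -2.13. Whether the fall is particular to cargo transcripts was not tested. Mapt, which encodes the microtubule-associated protein tau, fell by 5.05 ± 0.67 on the log2 scale (adult 3.70 ± 0.86, embryonic 8.75 ± 1.45, SD, n = 5; adjusted p = 0.00693). It was above background on 2 adult and 5 embryonic arrays, and with values below background set to that level the difference was -4.63. Its 2 other probe sets did not pass (-4.30 and -3.52, adjusted p = 0.0535 and 0.0545). Nefl, the light neurofilament and a known Tardbp target, fell by 3.72 ± 0.69 (adjusted p = 0.036), and Map1b, a microtubule-associated protein of growing axons and a target of Fmr1, by 3.06 ± 0.59 (adjusted p = 0.0441). A second Nefl probe set also passed (-4.27, adjusted p = 0.000818), and 2 other Map1b probe sets did not (-1.37 and -0.04, adjusted p = 0.718 and 0.989). The Map1b call was lost in 8 of 10 omissions of 1 array, all but those of adult replicates 1 and 5 (adjusted p up to 0.115). The Nefl call was lost in 7, all but those of adult replicates 2, 3 and 5 (up to 0.0922). Nefl was also lost with quantile scaling (adjusted p = 0.0575) and cyclic loess (0.1265), and Map1b with arrays centred on their median (0.0702) and with a trended robust variance (0.0506). Gap43 was at 9.85 ± 1.00 in adult and 11.02 ± 0.86 in embryonic axons (adjusted p = 0.522). Camk2a, Rgs4 and Bdnf did not pass, and Actb and Calm3 had no probe set with a single name.

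Some markers of sensory neurons and many of macrophages and leucocytes differed between the stages. Of 14 sensory neuron markers, which share Nefl and Gap43 with the cargo list, 4 were lower in adult samples, Nefl among them, and 0 higher, and their summed level on the log2 scale was 10.53 to 12.85 on adult and 12.20 to 14.38 on embryonic arrays, with Scn9a and Trpv1 below background on all adult arrays. Prph, the peripheral intermediate filament, was at 7.17 ± 1.59 on adult and 11.49 ± 0.82 on embryonic arrays (SD, n = 5; adjusted p = 0.0202), and the peptide gene Calca at 8.17 ± 1.39 on adult and 7.99 ± 2.11 on embryonic arrays (adjusted p = 0.986). Of 18 macrophage and leucocyte markers 10 were higher in adult samples, with summed levels of 12.74 to 13.94 on adult and 8.07 to 11.23 on embryonic arrays and with Itgam and Cd163 below background on all embryonic arrays. Adgre1 was at 9.62 ± 1.09 on adult and 2.93 ± 1.53 on embryonic arrays (adjusted p = 0.00224), Lyz2 at 12.27 ± 0.45 on adult and 5.58 ± 1.84 on embryonic arrays (adjusted p = 0.00224) and Fcgr2b at 8.97 ± 0.94 on adult and 2.93 ± 1.39 on embryonic arrays (adjusted p = 0.00224). None of 14 cell cycle, 11 Schwann cell, 5 satellite glial, 9 fibroblast, 7 endothelial or 8 cell body markers passed limma's threshold, and 1 of 7 erythroid markers was lower. In the lists without a call 2, 2, 1, 3, 1 and 2 markers, in this order, had an unadjusted p under 0.05, against 1890 of all 14217 genes. All 14 cell cycle markers had positive differences (median 0.82) and all 8 cell body markers negative ones (median -0.85). Many of these values were weak. The cell body markers Pou4f1, Tlx3, Neurod1, Hoxd1 and Drgx were below background on all adult arrays, Tlx3 and Neurod1 also on all embryonic arrays. The cell cycle markers Ccnb1, Birc5, Aurkb and Bub1 were below background on all embryonic arrays. Some of these cells may also make granule proteins, and the part of such cells in the member values was not tested.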

How the data were processed

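RNA from 10 axon samples, 5 adult and 5 embryonic, was measured on Affymetrix rat expression arrays. The authors deposited log2 values made with RMA, per the submitters' processing notes. No source used here states the RMA version or whether the arrays were handled in 1 run, and base 2 was taken from the range of the values. RMA compresses differences of weak probe sets, so their folds are understated. The number of arrays limits the precision. Groups came from the sample titles.

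Of 31099 probe sets 57 controls were left out, and 31042 entered a linear model of stage alone, adult minus embryonic, with moderated variances (limma 3.58.1, R 4.3.3). No filter or pseudocount was used, tests were two-sided, and p values were adjusted over all 31042 by Benjamini-Hochberg. Platform annotation gave 20826 probe sets with 1 symbol, and gene numbers of all 9 members matched current symbols. A gene outside the members was represented by its probe set with the highest mean. Promoter letters came from RefSeq and were searched with Python 3.11.15 and pandas 2.3.3, and figures were drawn with matplotlib 3.10.9.

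Named genes were all members, up to 5 called genes in each direction of each RNA-binding or cargo list and the 2 with the lowest p in a list without calls, the 3 most similar genes for 1 member probe set in each direction, up to 3 macrophage genes, and Gap43, Nefl, Calca and Prph. Igf2bp1, Stau1, Rbm3 and the cargo genes without a call were named after their values were seen. The members and lists were chosen with earlier results of these data known. The alternatives were other scalings, leaving out probe sets near background, a trended robust variance, weights per array, blocks for replicate number and array spread, other background levels, other summaries of a gene and the omission of each array. The bounds by array and the differences with weak values set to background were added after seeing the data. The fit was tested on simulated data.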

Additional observations from a re-analysis of the deposited data

Results flagged for a closer look

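In 8 of 66 sets of 5 arrays (the members' probe sets and the called genes of the RNA-binding and cargo lists, by stage), 1 array lay apart from the 4 others by more than Dixon's 95% critical value of 0.71. About 1 in 20 such sets would do so by chance. Embryonic replicate 4 stood apart in 3 of them. It was at 6.27 for Igf2bp2 1382609_at against 2.92 to 3.15 on the other embryonic arrays, at 4.55 for Cirbp 1369083_at against 1.77 to 2.24, and at 3.02 for Cirbp 1382809_at against 1.98 to 2.09. Embryonic replicate 3 stood apart in 3 others, at 2.10 for Tardbp 1371367_at against 6.85 to 7.47, at 4.21 for Hnrnpa3 1374405_at against 6.66 to 6.87, and at 3.13 for Hnrnpa3 1394741_at against 1.76 to 2.13. Embryonic replicate 1 was at 9.15 for Hnrnpa3 1388119_at against 8.05 to 8.29. Adult replicate 3 was at 2.62 for Caprin1 1395173_at against 1.55 to 1.82, all below background. The embryonic values of Cirbp 1382809_at and Hnrnpa3 1394741_at were likewise all below background.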

How the results depend on the processing

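The count of 0 called member probe sets held under every alternative run except the omission of embryonic replicate 2, and was 0 to 1 over the 10 omissions of 1 array, the 1 being Cirbp 1385904_at. The lowest adjusted p of a member was 0.0859 within narrow and 0.176 within wide arrays. The RNA-binding lists had 2 called genes, and 1 with arrays centred on their median, with the replicate number as a block, within narrow arrays or with the mean of a gene's probe sets, 0 within wide arrays (0 of all probe sets were called there), and 1 to 2 over omissions. The 3 called cargo genes became 1 with the replicate block, 0 within wide arrays, 1 within narrow arrays, 1 to 3 over omissions, and 2 with quantile scaling, cyclic loess, median centring or a trended robust variance. The replicate block left Elavl4 (adjusted p = 0.0387) and Mapt (0.021) called. Deviations of arrays with the same number correlated at -0.122 to 0.276, so the numbers do not pair the samples by this check. Over all probe sets calls numbered 258, 191 with the replicate block, 401 with array spread as a block, 432 of 10870 with the filter, 0 within wide arrays and 150 to 339 over omissions.

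Differences of weak or variable probe sets changed sign. Cyclic loess gave 0.24 for Tardbp 1371367_at and 0.055 for Hnrnpa3 1370872_at, and array weights gave 0.15 for Cirbp 1369083_at. Within wide arrays the values were 0.73, 1.98 and 0.30 for Tardbp 1377608_a_at, 1371367_at and 1378259_at, 0.69 for Caprin1 1371939_at, 0.64 and -0.84 for Pcbp2 1390372_at and 1395792_at, 0.40 for Cirbp 1369083_at and 1.75 for Hnrnpa3 1370872_at. Within narrow arrays they were -0.17, 0.16 and 0.012 for Caprin1 1371938_at, 1395412_at and 1395173_at, and -0.40 for Hnrnpa3 1388119_at. Omitting 1 array gave -1.03 to 0.88 for Tardbp 1371367_at, -0.58 to 0.071 for Tardbp 1378259_at, -0.048 to 1.26, -0.14 to 0.10 and -0.26 to 0.011 for Caprin1 1371938_at, 1395412_at and 1395173_at, -0.72 to 0.24 and -0.17 to 0.34 for Pcbp2 1390372_at and 1395792_at, -0.26 to 0.43 for Cirbp 1369083_at, and -0.61 to 0.19 and -0.11 to 1.01 for Hnrnpa3 1370872_at and 1388119_at. Without a change of sign, omissions gave -2.52 to -0.91 for Tardbp 1377608_a_at, -1.89 to -0.53 for Caprin1 1371939_at, -2.19 to -0.86 for Stau2 1390558_at and 0.78 to 1.93 for Hnrnpab 1370309_a_at. The cause of these changes was not tested. Members above background on all arrays of a stage were 3 to 5 of 9 in adult and 6 to 8 in embryonic axons under every background level and omission tried.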
